A study of Homo sapiens with 16 samples.

Results

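A set of 1156 genomic regions carried a ChIP-Seq peak in POLK-/- and in DDX23-/- HEK293T cells and none in wild-type HEK293T cells. HEK293T is a transformed human embryonic kidney line. Each region is a peak of the POLK-/- list that overlapped a peak of the DDX23-/- list by at least 1 bp and no peak of the wild-type list. The set held 1156 of the 2451 POLK-/- peaks (47.2%, 95% exact binomial interval 45.2 to 49.2), out of 9864 peaks in the 3 lists together. Membership was decided by which peaks were called in which list, so presence in the knockout lists and absence from the wild-type list are the rule and not results.

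The series comprises 16 samples of HEK293T cells without treatment, of which 12 belong to the experiment analysed here. Wild-type, POLK-/- and DDX23-/- cells each gave 2 pulldown and 2 control libraries, and 1 peak list per genotype was analysed, with 1468, 2451 and 5945 peaks. No genotype has a replicate list, nothing was tested between genotypes, and the intervals given below cover the sampling of peaks or of counts only. By the labels the pulldown was for Pol κ, whereas the protocol names an anti-FLAG M2 gel and no tag is given for these 3 genotypes. A complete knockout has no Pol κ to pull down, so the fragments, folds and p values of POLK-/- cells are given as enrichment in the pulldown and not as binding of Pol κ. Neither the number of clones nor the way each knockout was made is stated for these libraries. The numbers inside the peak names of the wild-type and DDX23-/- lists differ from the sample numbers, so which library each list was called from is uncertain.

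Pol κ is a Y-family DNA polymerase known for accurate synthesis across minor-groove adducts of guanine. DDX23 is a DEAD-box RNA helicase of the spliceosome that acts in the assembly of the catalytic complex before the first step of splicing. ChIP-Seq pulls down cross-linked DNA fragments and calls a peak where fragments pile up over the local background. Active promoters are open and often GC-rich, and tRNA genes, a further class of open sites, are transcribed by RNA polymerase III from promoter boxes inside the gene.

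The cells' labels were first set beside the peaks at the targeted genes. At POLK on chr5 (+ strand), the wild-type list had a peak at −191 bp from the gene start, with 9 fragments at the summit and a −log10 p of 9.20, and the DDX23-/- list had one at −274 bp, with 29 fragments and a −log10 p of 13.2. No peak of the POLK-/- list lay within 10 kb of the gene. At DDX23 on chr12, a peak of the DDX23-/- list lay 649 bp into the gene, with 24 fragments, and the other lists had none within 10 kb. A promoter peak does not show whether a protein is made, so these values do not check the genotypes, and neither gene is among the 1156 regions.

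Sequences of 4 regions are shown first, because they are among the strongest by POLK-/- p away from exons. By location class, they lie within 1 kb of a protein-coding start, in an intron, or far from any protein-coding start. A place in the first class does not show that a region is a promoter of the named gene. The classes go by annotated gene starts, exons and introns, and none of them marks tRNA genes. Whether a window holds a tRNA gene was not tested. Each line gives GRCh37 (+ strand) from 50 bases before to 50 after the POLK-/- summit, named by the protein-coding gene with the nearest start. SLC27A4 is chr9:131102368-131102468, 388 bp upstream. IZUMO2 is chr19:50642436-50642536, 24.1 kb from the start. OR1F1 is chr16:3243866-3243966, in an intron. PLRG1 is chr4:155471597-155471697, 95 bp upstream. Capitals mark matches to the letters of the motifs named further below. A match does not show that the letters act as a promoter element of the named gene.

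SLC27A4: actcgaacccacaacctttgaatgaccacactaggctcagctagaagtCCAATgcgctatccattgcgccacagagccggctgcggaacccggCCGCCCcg
IZUMO2: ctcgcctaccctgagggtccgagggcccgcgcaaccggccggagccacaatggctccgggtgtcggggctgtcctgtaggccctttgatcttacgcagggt
PLRG1: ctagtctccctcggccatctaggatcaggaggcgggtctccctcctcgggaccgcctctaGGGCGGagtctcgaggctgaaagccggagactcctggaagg
OR1F1: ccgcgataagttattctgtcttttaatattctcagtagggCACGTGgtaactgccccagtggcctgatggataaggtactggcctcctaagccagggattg

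The regions were the same places in both knockout lists, rather than broad peaks touching at their edges. The summit of the POLK-/- peak lay within 100 bp of that of its DDX23-/- partner at 1021 of 1156 regions (88.3%, 86.3 to 90.1), and at 1005 (86.9%) the overlap covered at least 50% of both peaks. Only 3 regions overlapped more than 1 DDX23-/- peak. The regions took up 51.0% of the 2265 POLK-/- peaks with a DDX23-/- partner, and they touched 1156 of the 5945 DDX23-/- peaks (19.4%). Of the remaining POLK-/- peaks, 1109 were in all 3 lists, 180 in the POLK-/- list alone, and 6 shared with wild-type alone.

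Absence from the wild-type list was not a matter of a wild-type peak just beside the region. A wild-type peak lay within 1 kb of 21 regions (1.82%, 1.13 to 2.76) and within 10 kb of 69 (5.97%). The exceptions sat at the edge of the rule. The region nearest ZNF768, a zinc finger gene, abutted a wild-type peak with a gap of 0 bp, that at COQ8A lay 59 bp away and that near MEF2C-AS2 70 bp away. Just outside the rule, POLK-/- peaks near PAPOLA, ERCC6L2 and PARP16 overlapped a wild-type peak by 9, 18 and 22 bp. On the side of the DDX23-/- list, the least overlap was 25 bp at SYNRG, then 75 bp near NDUFA13 and 76 bp at RPS6KA3, and the POLK-/- peaks of no other list that came nearest to a DDX23-/- peak were those at STK35, MTIF3 and LSM7.

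Most regions were promoters of protein-coding genes. By the summit, 872 of the 1156 (75.4%, 72.8 to 77.9) had a protein-coding gene start of GENCODE 44 no farther than 1 kb away, compared with 702 of 1109 peaks in all 3 lists (63.3%, 60.4 to 66.1), 67.6% of the whole POLK-/- list and 43.3% (36 to 50.9) of the peaks found in the POLK-/- list alone. Regions in none of the other classes, that is, away from gene starts and outside protein-coding genes, made up 76 (6.57%, 5.21 to 8.16), against 196 (17.7%, 15.5 to 20.0) of the peaks in all 3 lists. Starts of small RNA genes held 4 regions (0.346%) against 22 (1.98%). Starts of long noncoding RNA genes held 79 regions (6.83%), exons of protein-coding genes 66 (5.71%) and introns 59 (5.10%). The intervals of the set and of the peaks in all 3 lists were apart for protein-coding starts, small RNA starts and the class of other regions, and overlapped for the rest.

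**Figure D1:**
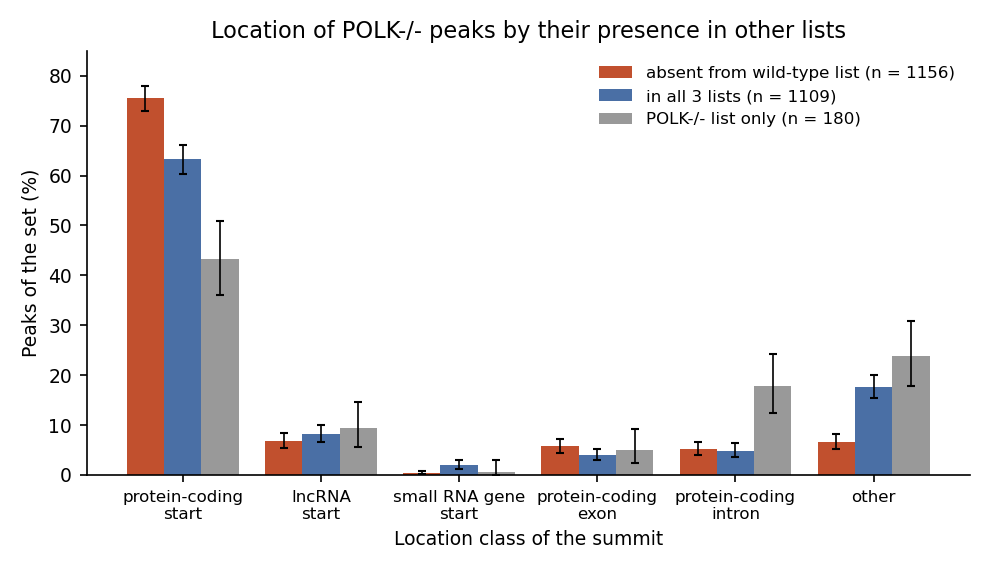
Share of POLK-/- peaks (%, y axis) in each location class of the summit (x axis), for the 1156 regions absent from the wild-type list, the 1109 peaks in all 3 lists and the 180 peaks of the POLK-/- list alone. Bars start at 0 and error bars are 95% exact binomial intervals. Protein-coding starts held 75.4%, 63.3% and 43.3%.

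The placement within promoters differed little between the sets. Of the 872 promoter regions, 621 (71.2%, 68.1 to 74.2) had the summit within 200 bp of the nearest start, and 404 (46.3%) had it upstream of or at the start. The peaks in all 3 lists had 71.1% and 44.3%. More than 1 protein-coding start lay within 1 kb at 189 promoter regions (21.7%), against 19.7% in all 3 lists. Strand was not considered in this count. The GC content of the regions had a median of 64.8% (64.4 to 65.5), against 63.6% (62.8 to 64.4) in all 3 lists.

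Strength in the POLK-/- list was low to moderate. The deposited fold, a ratio with 1 added to the fragments and to the background, had a median of 6.31 (6.22 to 6.44) over the regions and 10.3 (9.70 to 10.9) over the peaks in all 3 lists. The regions had a median of 23 fragments at the summit (range 11 to 289) and a median −log10 p of 11.0, against 40 fragments and 24.2. Their median width was 297 bp (291 to 305) against 464 bp (449 to 482). None of the first 100 POLK-/- peaks by p belonged to the set, and 35 of the first 500 did (7.0%, 4.92 to 9.60).

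Strength in the DDX23-/- list, which chose the partner but not its height, followed the same order, with the same limit on the comparison. The DDX23-/- peaks at the regions had a median fold of 9.03 (8.83 to 9.35), 42 fragments and a −log10 p of 21.4, against a fold of 16.8 (16.1 to 17.8), 79 fragments and 51.8 at the peaks in all 3 lists. None of the first 100 DDX23-/- peaks was at a region, and 30 of the first 500 were (6.0%). Enrichment, here the plain ratio of fragments to background, was 1.36 times as high in DDX23-/- as in POLK-/- cells at the median region (1.30 to 1.41). It was 1.45 times as high (1.36 to 1.51) at the peaks in all 3 lists.

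Regions with a higher enrichment in one knockout than in the other were about as common as among POLK-/- peaks generally. Enrichment was at least 1.5 times higher in DDX23-/- cells at 495 regions (42.8%, 39.9 to 45.7), where 45.3% of all POLK-/- peaks with a partner passed that ratio. It was at least 1.5 times lower at 113 regions (9.78%, 8.12 to 11.6), beside 10.2% of all such peaks. Both shares lie near this background, so they are not results about the set.

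**Figure D2:**
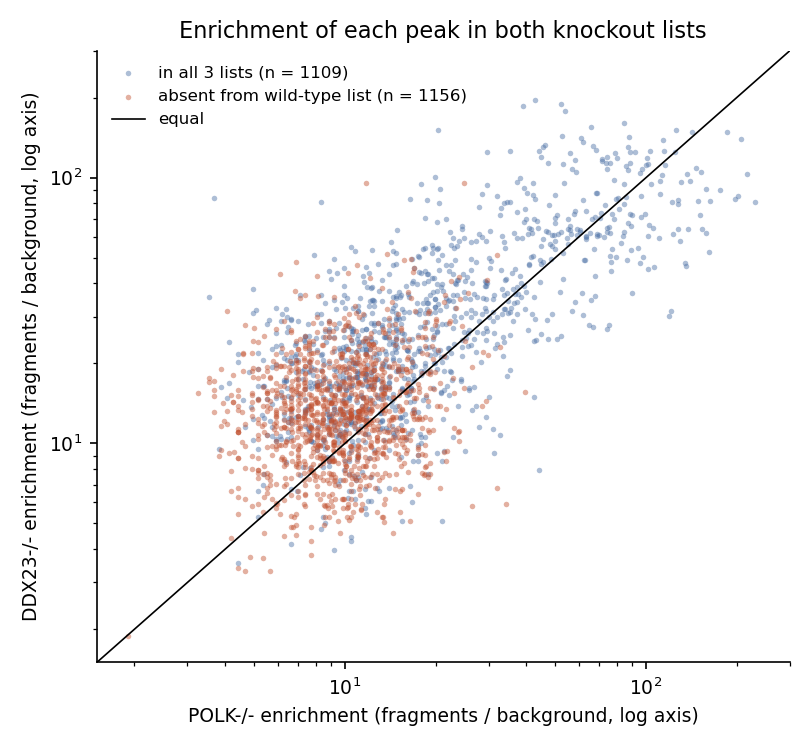
Enrichment at the summit (fragments over local background, no unit, log axes) in POLK-/- cells (x) and DDX23-/- cells (y), 1 point per peak, for the 1156 regions absent from the wild-type list and the 1109 peaks in all 3 lists. The line marks equal enrichment. The regions lie at lower values on both axes, with medians of 9.65 and 13.1 against 15.7 and 25.3.

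By POLK-/- p, the strongest regions of all were at NTHL1, which encodes a DNA glycosylase that removes oxidised pyrimidines in base excision repair. NTHL1 lies on chr16:2089816-2097867 on the − strand. It held 5 of the regions, among them the first 4 of the set by POLK-/- p. From the start of the gene on, the POLK-/- summits had 131, 289, 182, 172 and 117 fragments, with −log10 p values of 46.8, 145, 88.9, 109 and 73.7. The DDX23-/- peaks at the same places had 73, 194, 82, 84 and 57 fragments. By fragments, the peak on exon 2 was the highest in both lists and the peak on exons 5 and 6 the lowest. By p, exon 2 also led in both lists, but the weakest peak was on exon 1 in the POLK-/- list. In the DDX23-/- list it was on exon 3, with a −log10 p of 26.8. By fold, the highest peak was on exon 4 in the POLK-/- list and on exon 2 in the DDX23-/- list. The wild-type list had no peak in the gene, and its nearest peak was between 96.5 and 104 kb away.

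The peaks at NTHL1 traced the exons. The POLK-/- peaks overlapped 6 of 6 exons of the canonical transcript and covered 1003 of its 1030 exonic bases (97.4%), but 794 of 6985 intronic bases (11.4%). The DDX23-/- peaks covered 88.4% of the exonic and 6.26% of the intronic bases. All 5 POLK-/- summits lay in exons, and in the DDX23-/- list 4 did, with the fifth in the short intron between exons 5 and 6. Among the 17390 canonical transcripts with at least 3 exons, 1 had a peak of a list on each exon, and it was that of NTHL1. The caller's local background was also high there in the POLK-/- list, between 6.79 and 24.4 fragments at the 5 summits, where the median region had 2.72, and 4 of the 5 values ranked 2 to 5 among the 1156. Whether these fragments came from the chromosomal gene or from a spliced copy was not tested, and the pattern was noticed in these data. Leaving the 5 regions out, an alternative added after the pattern was seen, moved none of the 8 summaries of the set by more than its interval.

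**Figure D3:**
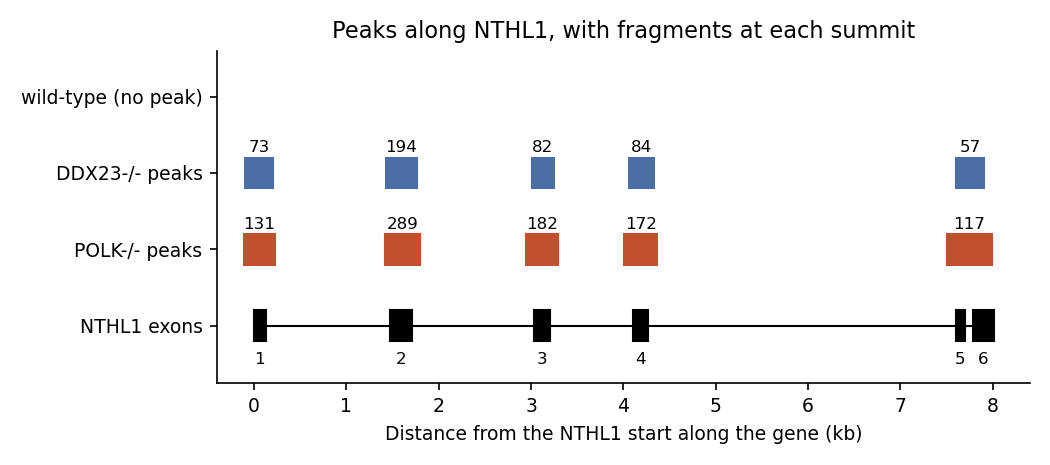
NTHL1 drawn from its start (left) to its end, with distance along the gene in kb (x axis), exons in black numbered 1 to 6, and the peaks of each list as bars to scale with the fragments at their summits above them. Peaks of both knockouts sit on the exons, and the wild-type list has none.

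Other strong regions by POLK-/- p lay in and near single genes. UBB, which encodes polyubiquitin, had a summit in its exon 1208 bp from the start, with 87 fragments and a fold of 20.1 in POLK-/- cells and 46 fragments and 13.2 in DDX23-/- cells. The region near NF2, the gene of the tumor suppressor merlin, had 92 and 141 fragments. The region at −121291 bp from the ZNF184 start had the highest POLK-/- fold of the set, 22.5, with 68 fragments, and 71 fragments in DDX23-/- cells. At SLC27A4, a fatty acid transport protein gene, the counts were 66 and 105, and at the region nearest IZUMO2, 60 and 66. The wild-type list had its nearest peak 1.05 kb away at ZNF184, 4.87 kb at IZUMO2, 30.7 kb at SLC27A4, 166 kb at UBB and 333 kb at NF2.

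Ranked by the DDX23-/- p, a different set of genes led. An intron of CROCC, where the nearest protein-coding start is that of MFAP2 carried the strongest, with 31 fragments in POLK-/- cells and 185 in DDX23-/- cells. CROCC held 3 regions in all, none in an exon. A pair of regions 46 and 92 kb upstream of ZNF322 had 45 and 16 fragments in POLK-/- cells and 162 and 185 in DDX23-/- cells. OR1F1 had 80 and 242. Promoters followed. DERL2, which acts in endoplasmic reticulum associated degradation, had 28 and 158, but a wild-type peak lay 147 bp from it. FKBP3 had 56 and 123. BAG3, a cochaperone gene, had 61 and 102, and SEC63, a component of protein translocation into the endoplasmic reticulum, had a fold of 6.68 and 26.3, with a wild-type peak 136 bp away. BAMBI had 21 and 100 fragments, and KYAT3 46 and 95.

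The extremes of the ratio between the knockouts showed how far single regions could lie from the median of 1.36. The highest ratios of DDX23-/- to POLK-/- enrichment were 8.08 at the farther ZNF322 region, 7.75 at a region 449 kb from the start of RNF144B, 7.12 at CROCC, 7.03 at DERL2 and 5.97 at the promoter of DLD, a subunit shared by mitochondrial dehydrogenase complexes. The lowest was 0.174 at TERF1, which encodes a telomere repeat binding protein, with 49 fragments over a background of 1.43 in POLK-/- cells and 27 over 4.55 in DDX23-/- cells. Next came ZRANB3, an enzyme that remodels replication forks, at 0.213, EPHA7 at 0.220, ABT1 at 0.311 and RASSF3 at 0.321. These regions were picked for their ratio, so the values carry no test.

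Genes were then grouped by function, with counts of genes that had a peak within 1 kb of a start. Over all 20090 protein-coding genes, 1998 had a POLK-/- peak and 1069 of these (53.5%, 51.3 to 55.7) had one of the regions. Each list below is read against that share. None had an interval that excluded it except the replication-dependent histone genes, where 0 of 6 genes with a POLK-/- peak had a region (upper limit 45.9%). No test was made on the lists.

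In the groups for making and breaking down protein, translation initiation and elongation factors had a region at 14 of 19 genes with a POLK-/- peak (73.7%, 48.8 to 90.9), proteasome genes at 8 of 10 (80.0%), cytosolic ribosomal proteins at 15 of 22 (68.2%), mitochondrial ribosomal proteins at 9 of 19 (47.4%) and aminoacyl-tRNA synthetases at 4 of 10 (40.0%). EIF4E2, a cap-binding protein gene, had 32 fragments in POLK-/- and 56 in DDX23-/- cells. RPL6 had 29 and 83, RPS14 33 and 59, and PSMC4, an ATPase subunit of the proteasome, 25 and 41. IARS1, the cytosolic isoleucyl-tRNA synthetase gene, had the most POLK-/- fragments of the genes named in this paragraph, 54, and 75 in DDX23-/- cells. Heat shock proteins and cochaperones had a region at 7 of 14 genes, led by HSPA1B with 42 and 68.

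DNA replication and translesion synthesis genes had a region at 11 of 16 genes with a POLK-/- peak (68.8%, 41.3 to 89.0), and DNA repair and checkpoint genes at 8 of 17 (47.1%, 23 to 72.2). MCM5, a subunit of the replicative helicase, had a fold of 8.02 in POLK-/- cells and 17.2 in DDX23-/- cells. WDHD1 had 28 fragments and 70, RFC2, a clamp loader subunit, 30 and 72, MCM10 24 and 62, and RPA1, a single-stranded DNA binding protein, 25 and 43. Of the repair genes, XRCC4, which acts in end joining, had 28 and 34, LIG3 23 and 66, FANCL 21 and 34, BARD1, the partner of BRCA1, 19 and 25, and XPA, of nucleotide excision repair, 23 and 50. NTHL1 is not on these lists.

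In RNA metabolism and transcription, spliceosome genes had a region at 9 of 16 genes (56.2%), DEAD-box and DEAH-box helicases at 6 of 12 (50.0%), general transcription factors and Mediator at 10 of 19 (52.6%), RNA polymerase subunits at 3 of 10 (30.0%) and small nucleolar RNA host genes at 3 of 3. PLRG1 had 50 fragments in POLK-/- and 49 in DDX23-/- cells, U2AF1, which recognises the 3′ splice site, 30 and 78, DHX34 38 and 84, DDX39B 27 and 55, and POLR2A, the largest subunit of RNA polymerase II, 42 and 69. Zinc finger genes had a region at 23 of 38 (60.5%), chromatin modifiers and remodelers at 5 of 12, among them KDM1A with 36 and 72, and immediate early genes at 3 of 9, with FOSL2 at 25 and 92. Oxidative phosphorylation subunits had 17 of 26 (65.4%), led by ATP5MC1 with 41 and 63. Cyclins and cyclin-dependent kinases had 4 of 7, and HOX genes 0 of 2.

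Short promoter motifs were counted on both strands within 100 bases of each summit on either side. The letters searched were CCGGAAG (ETS), GCGCATGCG (NRF1), GGGCGG (SP1), TATAAA (the TATA box), CACGTG (E box), TGACGT (CRE), TGANTCA (AP-1), AAGATGGCG (YY1) and GTTCGANNC (B box core, part of the internal promoter of tRNA genes), besides the box known by its letters as CCAAT. None lies within another, although matches can share end letters. Of the 872 promoter regions, 18.2% held the ETS motif, against 15.5% of the promoter peaks in all 3 lists and 10.1% of windows around all 20090 protein-coding starts. The YY1 motif stood at 7.0%, 6.41% and 2.04%, SP1 at 57.5%, 58.4% and 46.7%, and TATA at 1.83%, 2.99% and 7.13%. NRF1 stood at 3.67%, 3.13% and 1.88%, CCAAT at 27.4%, 29.6% and 25.9%, E box at 7.91%, 5.84% and 5.87%, CRE at 11.0%, 8.12% and 6.98%, and AP-1 at 1.95%, 0.712% and 3.91%. Promoter windows of the regions are centred on summits and those of all genes on starts, so the columns differ in more than the peaks.

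The B box core was rarer in the regions than in the peaks of all 3 lists, with intervals that did not overlap. It lay at 35 of 1156 regions (3.03%) and at 176 of 1109 peaks in all 3 lists. At promoters it was in 7 regions (0.803%, 0.323 to 1.65) against 5.13% (3.62 to 7.03), and away from protein-coding starts in 28 (9.86%, 6.65 to 13.9) against 34.4% (29.8 to 39.2). The 35 regions with it had a median POLK-/- fold of 6.68 and the 1121 without it 6.29. The 176 peaks with it in all 3 lists had a median fold of 38.0, against 9.19 for the 933 without. Wild-type peaks lay within 10 kb of 17 of the 35 regions. A match is a description of letters and not a mapped tRNA gene.

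Regions were spread over the chromosomes. Chr1 held the most, 133 (11.5%). These were 45.5% (39.7 to 51.5) of its 292 POLK-/- peaks, near the 47.2% of the whole POLK-/- list. Among the assembled chromosomes, that share was highest on chr5, 65.7% (55.6 to 74.8). It was lowest on chr6, 31.8% (26.2 to 37.8), where 84 of 264 POLK-/- peaks belonged to the set. Both were picked as extremes. Of the 176 peaks in all 3 lists with a B box core, 71 were on chr6, and of the 35 regions with one, 9 were.

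The wild-type list was the shortest and the shallowest, and the absence of the regions from it was set beside depth. Solving the caller's formulas for whole fragments gave genome-wide background levels of 0.573 fragments for wild-type, 1.25 for POLK-/- and 1.94 for DDX23-/- cells. Divided by the shortest peak of each list (228, 211 and 196 bp), taken as the fragment length, these levels gave relative depths of 2.36 for POLK-/- and 3.94 for DDX23-/-, with wild-type at 1. The scaling below uses the background levels alone. The fewest fragments at a wild-type summit were 6, and the lowest wild-type −log10 p was 5.28. Absence from the list therefore means that no peak was called at this depth. How many wild-type fragments lay at the regions is not known from a peak list.

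The share of peaks absent from the wild-type list fell with strength. Among POLK-/- peaks with a DDX23-/- partner, it was 79.4% (75.8 to 82.6) in the weakest quartile by POLK-/- p, then 68.9%, 46.5% and 9.36% (7.09 to 12.1) in the strongest. By the p of the DDX23-/- peak the shares were 82.0%, 69.3%, 44.7% and 8.13%. The same order held within location classes. Protein-coding starts went from 79.9% in the weakest quartile to 11.9% in the strongest, starts of long noncoding RNA genes from 77.3% to 5.26%, introns from 92.0% to 6.90% and other regions from 80.0% to 5.36%. Within each quartile the intervals of the 4 classes overlapped. Peaks not absent had also passed a call in the shallowest list, so the fall with strength is a description tied to the rule and no test.

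**Figure D4:**
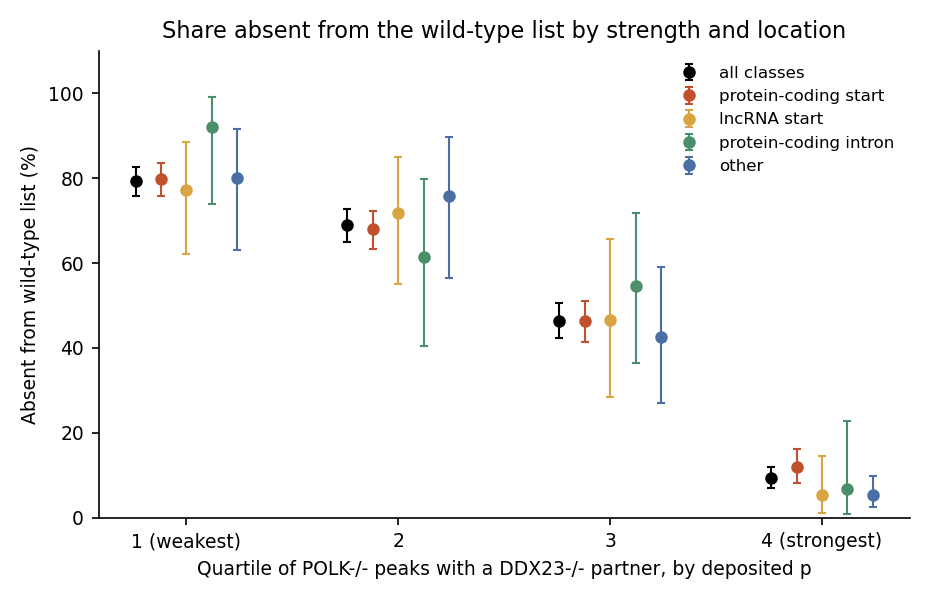
Share of POLK-/- peaks with a DDX23-/- partner that were absent from the wild-type list (%, y axis), by quartile of deposited POLK-/- p (x axis, weakest to strongest), for all peaks and for 4 location classes. Points are shares and error bars 95% exact binomial intervals. All classes fall from between 77.3% and 92.0% to between 5.26% and 11.9%.

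Scaled to wild-type depth, the regions came closer to the limit of the wild-type list than the peaks in all 3 lists did, and how many fell under it depended on the setting. Multiplying fragments and background of the POLK-/- peak by the ratio of the background levels of the 2 lists left the median region with 10.5 fragments and a −log10 p of 7.46, against 18.3 and 15.8 for the peaks in all 3 lists. Under the weakest wild-type p lay 182 regions (15.7%, 13.7 to 18) and 43 peaks in all 3 lists (3.88%, 2.82 to 5.19). The share of regions under it was 42.5% with the median background of each list as its level, and 55.4% among peaks with a q of 1e-05 or less. At or over the 10th percentile of the wild-type list, 7.75, lay 558 regions (48.3%) against 84.7%. At or over its median, 12.9, lay 116 (10.0%, 8.36 to 11.9) against 58.2%. From the DDX23-/- values, 108 regions (9.34%) fell under the weakest wild-type p.

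These values assume the same enrichment in wild-type cells and leave out counting error and the caller's multiple-testing threshold, both of which bear on peaks near the limit. With 1 list each, library, depth and genotype cannot be told apart.

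**Figure D5:**
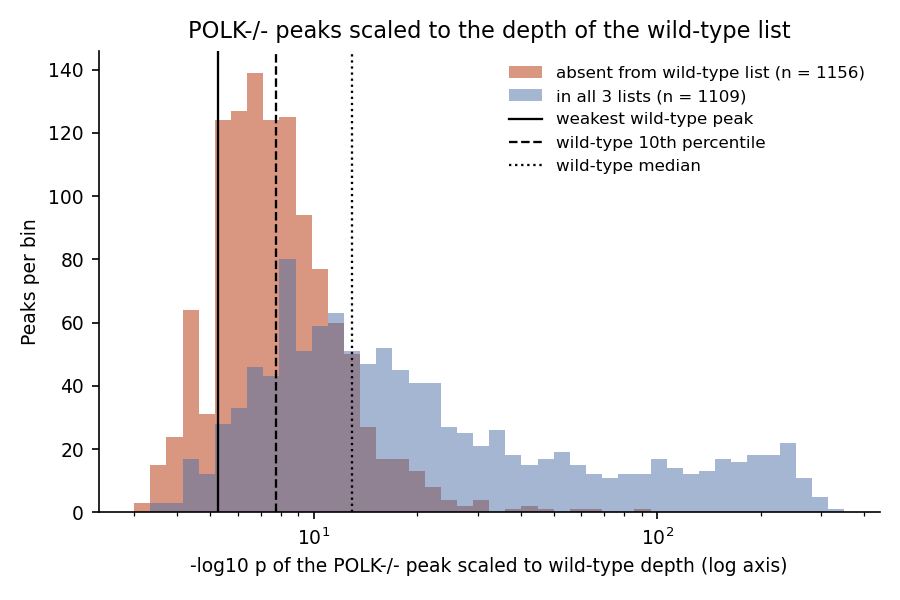
Number of POLK-/- peaks per bin (y axis) by the −log10 p each would have at the depth of the wild-type list (x axis, log scale), for the 1156 regions absent from that list and the 1109 peaks in all 3 lists. Vertical lines mark the weakest wild-type peak (5.28), the 10th percentile (7.75) and the median (12.9). The regions have a median of 7.46 and the peaks in all 3 lists 15.8.

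The 116 regions at or over the wild-type median after scaling are those whose strength in POLK-/- cells was far from the limit. They had a median POLK-/- fold of 11.2 and a DDX23-/- fold of 11.8, and the ratio of their enrichments was 1.01 (0.829 to 1.19). Protein-coding starts made up 79 of them (68.1%, 58.8 to 76.4) and other regions 10 (8.62%). Of the 645 peaks in all 3 lists over the same line, 54.1% (50.2 to 58.0) were at protein-coding starts and 26.0% (22.7 to 29.6) were other regions. A B box core lay at 7 of the 116 (6.03%) and at 165 of the 645 (25.6%). The 5 NTHL1 regions kept scaled −log10 p values of 30.1, 91.4, 56.3, 68.3 and 46.0, UBB 42.7, NF2 40.9, ZNF184 39.1, SLC27A4 32.2, IZUMO2 30.9, BAG3 27.3 and TERF1 26.9. Since this line and the rule both use the POLK-/- p, the count is a description of the set.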

How the data were processed

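ChIP-Seq peak lists of wild-type, POLK-/- and DDX23-/- HEK293T cells were analysed, 1 list per genotype, and 0 tests were made between them. Groups were taken from the sample labels. Libraries without a peak list, including the tagged Pol κ pulldowns, were not analysed here. The submitters' processing notes name Bowtie2, MACS2, bedtools, deepTools and hg19. Versions, caller threshold, control and pooling are not given in the sources used here. The authors deposited for each peak a fold, a ratio whose numerator and denominator each have 1 added, the −log10 p and −log10 q, and a score of 10 times the −log10 q.

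MACS2's formulas were solved for fragments and background at each summit, with 1 scale per list. Whole fragments matching the deposited p within 0.1% were found for 1468 of 1468, 2451 of 2451 and 5945 of 5945 peaks. The lowest background value held by 2% or more of a list's peaks served as its genome-wide level, 0.573, 1.25 and 1.94 fragments. Total reads are unknown. Fragments are not shown to be distinct molecules, so intervals cover counting error only.

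Overlap meant at least 1 bp, and of several DDX23-/- partners the one with the smallest p was used. Summits were classed against GENCODE 44 on GRCh37, in the order protein-coding start, long noncoding start and small RNA start (within 1 kb), exon, intron, other. Shares have exact binomial (Clopper-Pearson) and medians order-statistic 95% intervals. The genes named were the first 10 by each p, the 5 highest and lowest ratios, the regions nearest the limits of the rule, and the strongest of each of 20 gene lists. CROCC and the NTHL1 exon pattern were added after their values were seen, as were the split by B box core and the split at the wild-type median. The members and lists were chosen with earlier results of these data known. Some of the regions this rule names are not reported here. Recovery and overlap were tested on simulated data. Python 3.11.15, numpy 2.4.6, pandas 2.3.3, scipy 1.17.1 and pysam 0.24.0 were used.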

Additional observations from a re-analysis of the deposited data

How the results depend on the processing

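Of 62 comparisons of 8 results with alternative settings, 47 moved by less than the interval of the value, or by less than 1.5 times for a count, and 15 moved by more. With a reciprocal overlap of 50%, the median POLK-/- fold was 6.51. Among peaks with a q of 1e-05 or less, it was 6.96, the DDX23-/- fold was 9.74 and the share of regions under the weakest wild-type p at wild-type depth 55.4%, since the weakest wild-type peak is then stronger. Taking as many peaks of each list as the wild-type list holds left 246 regions, 16.8% of those POLK-/- peaks, with a POLK-/- fold of 8.35, a DDX23-/- fold of 13.9, a ratio of 1.66 and 0% under the weakest wild-type p. The share at protein-coding starts was 81.1% with a distance of 5 kb and 83.3% with the starts of all genes. The share of regions under the limit at wild-type depth was 42.5% with the median background as the level, 51.7% with the 10th percentile as the limit and 9.34% from the DDX23-/- peaks. The last setting added, leaving out the NTHL1 peaks, was chosen after seeing the data and moved none of the 8. No paired analysis was possible because each genotype has 1 list and no result comes from a test.

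With 1 list per genotype, no value here separates a genotype from a library. The relative depth rests on the caller's background and the shortest peak. The scaled share under the weakest wild-type p ran from 0% to 55.4% with the setting, so it gives no single figure for what depth accounts for. The 0% came from taking equal numbers of peaks, which drops the weakest POLK-/- peaks before the share is taken, so it is no estimate. Peaks with few fragments carry the largest counting error.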
